A study of Bos taurus with 60 samples.

Results

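The liver miRNAs bta-miR-122 and bta-miR-885 were followed in 60 beef steers. Both were taken by name from the 1030 known mature bovine miRNAs in the count tables (2 of 1030). Small RNA was sequenced from liver collected at slaughter, 1 library per steer, from 20 Angus, 20 Charolais and 20 Kinsella Composite (KC) steers, and all 60 had been fed the same barley-based finishing diet. Residual feed intake (RFI) is the feed an animal eats above or below what its growth and body weight predict, so that a low-RFI steer is an efficient one. In each breed the labels name 6 low-RFI and 6 high-RFI steers, and 8 others carry no RFI group. According to the methods of the study, the steers sequenced had the highest and lowest RFI of their breed, so that these 8 were RFI extremes too. Angus and Charolais were purebred, whereas KC was a crossbred population. The methods of the study say that KC steers were on average the youngest at slaughter and Charolais the oldest, so that breed and age cannot be told apart. They also say that the steers with an RFI group were selected in part for miRNA profiles close to the rest of their breed.

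miRNAs are short RNAs that guide Argonaute proteins to messenger RNAs, which are then repressed or degraded. Target choice rests mainly on the seed, bases 2 to 8 from the 5′ end. miR-122 is the classic hepatocyte miRNA. In other mammals it is among the most plentiful miRNAs of the liver and is known for its part in cholesterol and fatty acid metabolism and in keeping hepatocytes differentiated. miR-885 is a less abundant miRNA that is also enriched in liver, and its level in blood has been studied as a marker of liver injury.

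The mature sequences of both miRNAs, as listed by the study for known bovine miRNAs, are shown because the seeds set which messages each can pair with and whether reads could belong to another miRNA. The seed is in capitals.
bta-miR-122: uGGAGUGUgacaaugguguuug
bta-miR-885: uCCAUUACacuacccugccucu
Both are 22 bases long and both begin with U, but the seeds have nothing in common. No other known bovine miRNA of that list carries either seed over bases 2 to 8. The nearest neighbour shared bases 2 to 7 with miR-122, which are in capitals in its sequence.
bta-miR-2411-5p: uGGAGUGacugucagaugcagcca
This neighbour had a mean of 6.4 counts per steer, against a mean of 36230 for miR-122. Each was compared base by base with the 588 sequences of that list, slid by up to 2 bases either way. The closest differed from it at 7 positions where they overlapped, so that no near-identical copy was on the list to share its reads. Each of the 2 miRNAs has a single precursor in the tables. MIR885 lies within the span of ATP2B2, a calcium pump gene, in the RefSeq gene table.

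The deposited values are raw read counts. Total counts per steer ran from 1930859 to 6759381, and KC libraries were the deepest, with a median of 5547018 against 3720336 in Angus. At these totals, 3 counts correspond to 0.444 to 1.554 counts per 1000000 counts of the library (CPM), a floor that covers counting error only. miR-122 had 10763 to 72942 counts in a steer and miR-885 had 29 to 396, so that both stood above the floor in every library. CPM values below were scaled by the trimmed mean of M values (TMM) over the 60 libraries. In 2 libraries the scaling factor was far from the others, at 0.643 in Charolais no RFI group replicate 7 and 0.673 in Angus no RFI group replicate 3, against 0.821 to 1.158 in the other 58. In the Charolais library bta-miR-10b reached 54669 CPM, whereas it lay between 1325 and 6796 CPM in the other 58 libraries. In the Angus library it was at 6128 CPM. The summed level of 5 stellate and mesenchymal miRNAs was highest in these libraries, at 401346 and 304817 CPM, against at most 263397 CPM elsewhere. CPM is divided by the scaling factor, so that a low factor raises every CPM value of its library. These sums were not recomputed by library total alone. Both libraries are from steers with no RFI group, so that the RFI comparisons do not hold them.

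miR-122 was the 17th most abundant known miRNA, with a mean level of 8139 CPM and 0.811% of all counts. bta-miR-192, another liver-enriched miRNA, ranked first at 234576 CPM and took 23.4% of the counts. In a single steer there were 13.4 to 54.3 counts of miR-192 for each count of miR-122, with a median of 29.2, and 15.9 to 44.9 without the 2 libraries of low scaling factor. The rank of miR-122 within a library ran from 12 to 25. It stood next to bta-miR-100 at 8170 CPM, bta-miR-215 at 8473 CPM and bta-miR-30e-5p at 8727 CPM above it, and to bta-miR-181a at 7876 CPM, bta-miR-26b at 7661 CPM and bta-miR-486 at 7209 CPM below it. These neighbours differed from miR-122 by less than its own standard deviation of 2023 CPM over the 60 steers. miR-215 carries a seed of the miR-192 family, and miR-486 is a red blood cell miRNA. These levels are read counts of mature sequences of nearly the same length, and how well each sequence enters a library was not measured.

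miR-885 ranked 143rd of the 425 miRNAs that reached 1 CPM in 10 or more steers, at a mean of 37.0 CPM. Its rank in a single library ran from 117 to 200. Its neighbours were bta-miR-33b at 37.8 CPM above and bta-miR-19a at 36.6 CPM below. Next came bta-miR-17-5p and bta-miR-200a above, and bta-miR-214 and bta-miR-338 below, all between 35.3 and 38.0 CPM. In a steer there were 115 to 1196 counts of miR-122 for each count of miR-885, with a median of 215. By breed the median was 188 in KC, 228 in Charolais and 239 in Angus. The highest ratio came from the Charolais library with the low scaling factor, and without the 2 such libraries the range was 115 to 474.

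**Figure D1:**
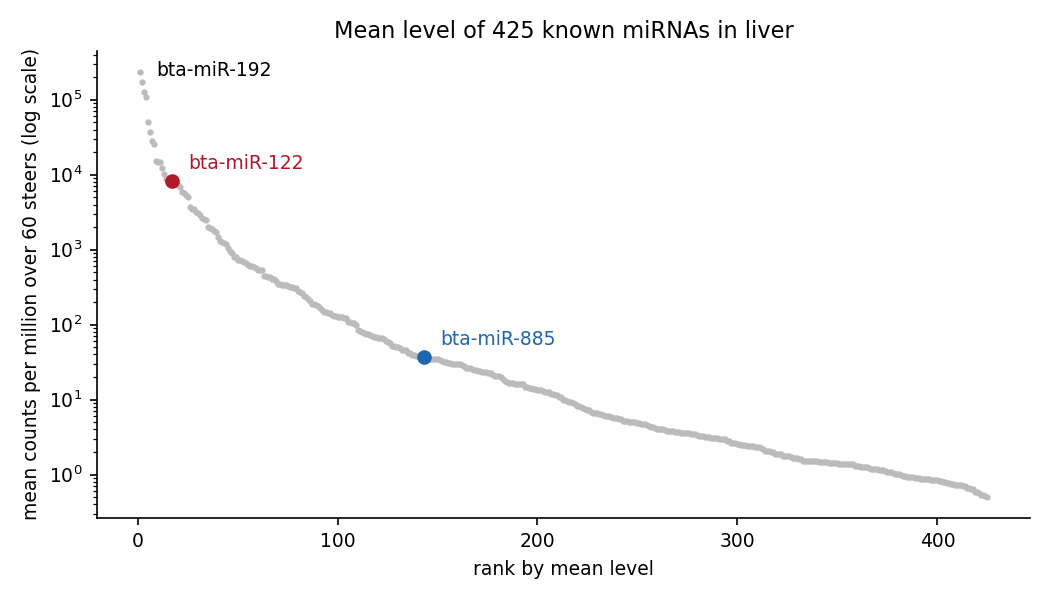
Mean level over 60 steers in CPM, on a log scale, against rank for the 425 known miRNAs that reached 1 CPM in 10 or more steers. Each point is a miRNA. miR-122 stands at rank 17 with 8139 CPM and miR-885 at rank 143 with 37.0 CPM, while bta-miR-192 is first.

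The 2 miRNAs sit among 11 listed here as hepatocyte-enriched. This list and those for other cells were drawn up here and not by the study, and the cell type of each miRNA was not tested. All 11 were found in these livers, from bta-miR-455-3p at 30.3 CPM to miR-192 at 234576 CPM. Together they made up 304450 to 604424 CPM in a steer, with a median of 393145. The highest sum was that of the Angus library with the low scaling factor, and the other 58 reached at most 472182 CPM. Its low factor raises this sum, which was not recomputed by library total alone. Markers of other liver cells were present as well. The 5 stellate and mesenchymal miRNAs were led by bta-miR-143 at 172133 CPM, and the 2 endothelial ones by bta-miR-126-5p at 15379 CPM. The 7 leukocyte miRNAs were led by bta-miR-142-5p at 3455 CPM. Among 3 erythroid miRNAs the highest was miR-486. The 6 biliary epithelial miRNAs were lower, from bta-miR-200c at 8.11 CPM to bta-miR-141 at 154 CPM. Of 7 muscle miRNAs 3 never exceeded 1 count in a steer (bta-miR-206, bta-miR-208a and bta-miR-208b), and the highest was bta-miR-133a at 35.0 CPM. None of the 41 listed miRNAs was at 0 in every steer. In tissue of mixed cells, fewer cells of a type and less RNA per cell cannot be told apart.

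Over the 60 steers miR-122 ran from 5203 to 18848 CPM, a 3.62-fold span, with a median of 7855 CPM. The highest steer was Charolais no RFI group replicate 7, and without the 2 libraries of low scaling factor the top was 12236 CPM, a 2.35-fold span. Its coefficient of variation (CV) was 24.9%, whereas counting error alone accounts for 0.56%. It was the 4th most variable of the 20 most abundant miRNAs, after miR-100, miR-486 and miR-143, whose CVs were 33.9%, 33.7% and 25.5%. Without these libraries the CV of miR-122 was 18.4%, and it again ranked 4th. The other 9 miRNAs of the hepatocyte list had CVs from 11.5% for bta-miR-194 to 44.2% for miR-455-3p. Those among the 20 most abundant were miR-192 at 12.5%, bta-miR-101 at 12.8%, bta-miR-148a at 13.3% and miR-215 at 17.3%, and bta-miR-455-5p was at 34.3%. miR-885 ran from 11.7 to 69.0 CPM, a 5.92-fold span, with a median of 36.7 CPM, and from 15.9 CPM, a 4.35-fold span, without the 2 libraries. Its CV was 28.5%, or 25.8% without the 2 libraries, against a counting error of 8.76%.

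**Figure D2:**
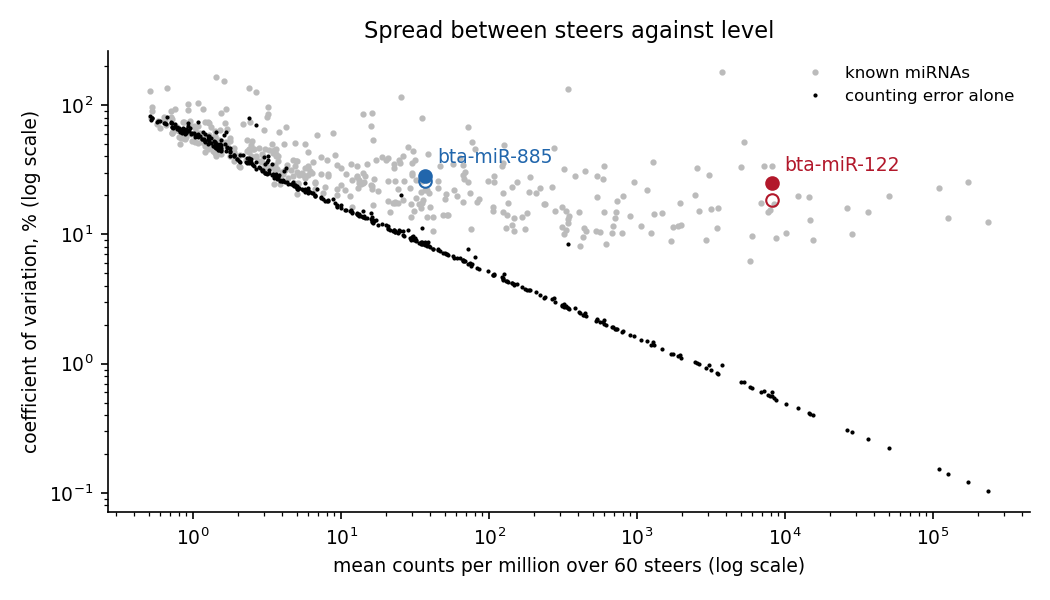
Coefficient of variation over 60 steers in percent against mean level in CPM, both on log scales, for 425 known miRNAs (grey) with the value that counting error alone gives for each (black). Filled coloured points mark miR-122 (24.9%) and miR-885 (28.5%) over all steers, and open ones their values without the 2 libraries of lowest scaling factor (18.4% and 25.8%). Counting error alone gives 0.56% and 8.76% at their levels.

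miR-885 differed by breed and was highest in KC. It ran from 11.7 through a median of 29.1 to 45.3 CPM in the 20 Angus steers. In the 20 Charolais steers the lowest, median and highest values were 15.8, 36.7 and 58.6 CPM. In the 20 KC steers they were 33.5, 43.1 and 69.0 CPM. All 20 KC steers stood above the Angus median, and 14 of 20 Angus steers lay below the lowest KC steer, but the breeds overlapped. The mean was lowest in Angus at 29.6 ± 7.45 CPM, intermediate in Charolais at 37.8 ± 11.2 CPM and highest in KC at 43.5 ± 7.80 CPM (SD, n = 20 steers each). Without the 2 libraries of low scaling factor the lowest Angus steer was at 15.9 CPM and the lowest Charolais steer at 19.7 CPM, and the means were 30.6 ± 6.30 and 38.9 ± 10.2 CPM (SD, n = 19 each).

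The edgeR quasi-likelihood test over 60 steers found that miR-885 differed between breeds (adjusted p = 0.00082). Of the 425 miRNAs tested, 83 did, or 19.5%. Its level was 1.47-fold higher in KC than in Angus (log2 fold change 0.55, SE 0.11, 95% interval of the fold 1.25 to 1.72, edgeR adjusted p = 0.000291). In that comparison 55 of 425 miRNAs were called, or 12.9%. Between Charolais and Angus the log2 fold change was 0.34 (SE 0.12, edgeR adjusted p = 0.101), and 10 of 425 miRNAs were called, or 2.35%. Between KC and Charolais it was 0.21 (SE 0.11, edgeR adjusted p = 0.236), with 71 of 425 called, or 16.7%. The order of the breed means was thus KC, Charolais and Angus, in which neighbours did not pass the test and the ends did.

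The higher miR-885 of KC was also found when half-sibs were not counted as independent. With the mean of each sire as the unit, 11 KC sires stood 0.43 on the log2 scale above 7 Angus sires (exact permutation p = 0.00066, two-sided, Benjamini-Hochberg p = 0.00396 over 6 tests). The sire label of 1 KC steer may stand for an unknown sire, and with 10 KC sires, leaving it out, the difference was again 0.43 (exact permutation p = 0.00129). The log2 fold change was 0.57 with every library thinned to the same depth, 0.50 in the 36 steers with an RFI group, and 0.51 without the 2 libraries of low scaling factor, all with an edgeR adjusted p under the threshold. Leaving out any of the 60 steers gave 0.49 to 0.58. Markers of leukocytes were examined in the same comparison. All 7 had a log2 fold change above 0, against 206 of 425 over all tested, with a median of 0.19 against -0.01. Of the 7, 2 were called (bta-miR-155 and bta-miR-146a), with 12.9% called over all tested. The range of their summed level was 4059 to 7127 CPM in KC and 4115 to 5816 CPM in Angus. The 5 stellate and mesenchymal miRNAs (median 0.10) and the 2 endothelial ones (median 0.01) were also all above 0, with none called. None of the 3 erythroid miRNAs was above 0 (median -0.12). On the muscle list 3 of 4 tested were above 0 (median 0.19), and on the biliary epithelial list 2 of 6 (median -0.05), with none called. In Charolais against Angus, where miR-885 was not called, all 7 leukocyte miRNAs were above 0 as well. Their median there was 0.18, none was called, and 213 of 425 were above 0 over all tested. The part of these lists in the result for miR-885 was not tested.

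For miR-122 the breed difference was called over the 3 breeds together, but this call depended on single steers. The lowest, median and highest values were 5203, 7146 and 8658 CPM in Angus. In Charolais they were 6290, 8139 and 18848 CPM, and in KC 5893, 7910 and 12236 CPM. There were 8 of 20 Charolais steers and 7 of 20 KC steers above the highest Angus steer, and the lower parts of the 3 ranges overlapped. The Angus mean was 7241 ± 1025 CPM, the KC mean 8222 ± 1563 CPM and the Charolais mean 8954 ± 2768 CPM (SD, n = 20 steers each). Without the library of low scaling factor the highest Charolais steer was at 12064 CPM and the mean was 8433 ± 1536 CPM (SD, n = 19). As a share of counts, with no TMM factor, Angus had 0.731% ± 0.122, KC 0.837% ± 0.145 and Charolais 0.864% ± 0.204 (SD, n = 20 each).

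Over the 3 breeds the edgeR adjusted p for miR-122 was 0.0312, but it was 0.0721 without the 2 libraries of low scaling factor and up to 0.0613 without single steers. These steers were Angus no RFI group replicate 8, Charolais low-RFI replicate 1 and Charolais no RFI group replicates 1, 6 and 7. Charolais stood 0.31 above Angus on the log2 scale (SE 0.09, 95% interval of the fold 1.09 to 1.40, edgeR adjusted p = 0.0503), just outside the threshold. Without the 2 libraries the difference was 0.20. With each steer left out in turn the adjusted p ran from 0.0258 to 0.122 and fell under the threshold in 16 of 60 cases. KC was 0.18 above Angus (SE 0.09, edgeR adjusted p = 0.186), and 0.12 below Charolais (log2 fold change -0.12, SE 0.09, edgeR adjusted p = 0.420). No pair of breeds was therefore called for miR-122, whereas the 95% interval of the log2 fold change for KC against Angus was 0.00 to 0.36. With the mean of each sire as the unit, 5 Charolais sires stood 0.19 on the log2 scale above 7 Angus sires (exact permutation p = 0.0707, two-sided, Benjamini-Hochberg p = 0.212 over 6 tests). The 11 KC sires stood 0.074 above the Angus sires (exact permutation p = 0.559).

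The other hepatocyte-enriched miRNAs moved in both directions between breeds. Of the 11 on the list, 4 differed over the breeds by the edgeR test, against 19.5% of all tested. They were miR-122, miR-885, miR-215 and miR-455-3p. In KC against Angus, where 12.9% of all were called, 2 rose and 1 fell. miR-885 and miR-455-3p were higher, the latter by 0.51 on the log2 scale (edgeR adjusted p = 0.033), and miR-215 was lower (log2 fold change -0.22, edgeR adjusted p = 0.005). The median log2 fold change of the 11 was -0.02, against -0.01 over all 425 tested, and 5 of 11 were above 0. In Charolais against Angus, with 2.35% of all called, the only list member called was miR-215, which was higher there by 0.21 (edgeR adjusted p = 0.036), with a list median of 0.07 against 0.00 over all tested. In KC against Charolais, with 16.7% of all called, it was again miR-215, lower by 0.43 (log2 fold change -0.43), with a list median of -0.07 against -0.03. The comparisons share their breeds and are not independent of each other.

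**Figure D3:**
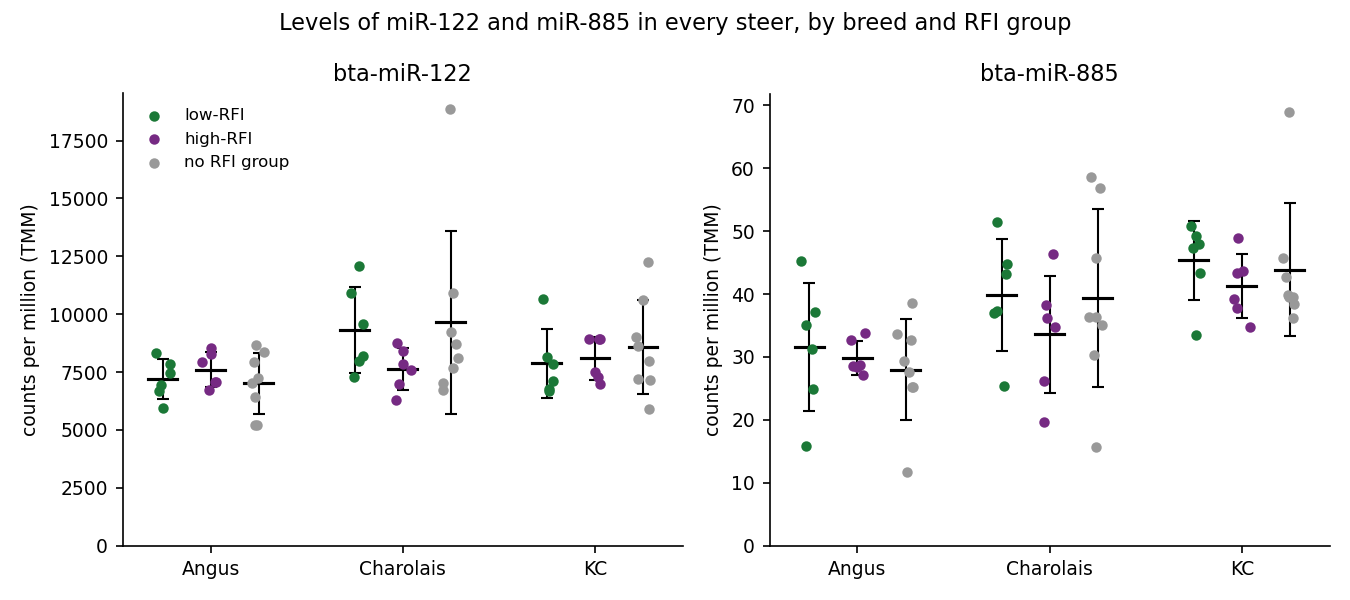
TMM-scaled CPM of miR-122 (left) and miR-885 (right) in each of 60 steers, by breed and RFI group. Points are steers, horizontal lines are group means and bars are ± 1 SD (n = 6 for low-RFI and high-RFI, n = 8 without an RFI group). The 20 KC steers lie between 33.5 and 69.0 CPM for miR-885, and a single Charolais steer reaches 18848 CPM for miR-122.

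The RFI comparison asked whether either miRNA differed between efficient and inefficient steers of a breed. Neither was called in any breed, the rule being an unadjusted p under 0.05 with a fold change above 1.5. By this rule edgeR called 9 of 373 miRNAs in Angus, or 2.41%, 7 of 373 in Charolais, or 1.88%, and 7 of 385 in KC, or 1.82%.

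In Charolais, miR-122 had its lowest, median and highest value at 7305, 8882 and 12064 CPM in low-RFI steers and at 6290, 7721 and 8741 CPM in high-RFI steers. There were 3 of 6 low-RFI steers above every high-RFI steer, and the groups overlapped. The means were 9334 ± 1859 (SD, n = 6) and 7645 ± 909 (SD, n = 6) CPM. The fold change was 1.25 (log2 0.32, SE 0.13, 95% interval of the fold 1.03 to 1.51), with an edgeR unadjusted p of 0.0245 and an adjusted p of 0.752. Of the 373 miRNAs tested, 19 had an unadjusted p under 0.05, or 5.09%. The exact permutation test on miR-122 alone gave p = 0.0801 (two-sided, 924 relabelings, smallest possible p = 0.00216, Benjamini-Hochberg p = 0.481 over 6 tests).

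In Angus and KC the log2 fold change of miR-122 was near 0. Low-RFI Angus ran from 5932 to 8330 CPM with a median of 7206, and high-RFI Angus from 6709 to 8523 CPM with a median of 7489 (log2 fold change -0.05, SE 0.09, edgeR adjusted p = 0.970). Low-RFI KC ran from 6696 to 10655 CPM with a median of 7487, and high-RFI KC from 6986 to 8935 CPM with a median of 8205 (log2 fold change -0.01, SE 0.11, edgeR adjusted p = 0.995). The groups overlapped in both breeds, and exact permutation p-values were 0.398 and 0.701. The 95% interval of the log2 fold change was -0.23 to 0.13 in Angus and -0.25 to 0.23 in KC, so that a change of 1.5-fold lies outside it in either direction. Whether the RFI effect on miR-122 differed between breeds was tested in 1 fit of 36 steers, where the edgeR interaction p was 0.0553 (adjusted p = 0.994). None of 426 miRNAs had an adjusted p under 0.05 in that test, and 16 had an unadjusted p under 0.05, or 3.76%. The likelihood ratio test, run as an alternative, called 1.

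For miR-885 the 3 breeds had the same sign. In Angus the lowest, median and highest values were 15.9, 33.1 and 45.3 CPM in low-RFI steers and 27.2, 28.6 and 33.8 CPM in high-RFI steers, where the low-RFI group spanned the whole high-RFI range. In Charolais they were 25.5, 40.3 and 51.5 CPM against 19.7, 35.5 and 46.3 CPM. In KC they were 33.5, 47.6 and 50.9 CPM against 34.8, 41.3 and 49.0 CPM. The log2 fold changes, low-RFI over high-RFI, were 0.12 (SE 0.19), 0.28 (SE 0.20) and 0.17 (SE 0.12), with edgeR adjusted p of 0.970, 0.987 and 0.987. Exact permutation p-values were 0.970, 0.275 and 0.286 (two-sided, n = 6 against 6). In 1 fit over the breeds the log2 fold change was 0.16 (SE 0.10, edgeR adjusted p = 0.976), with a 95% interval of the fold of 0.97 to 1.29. For miR-122 it was 0.06 (SE 0.07, edgeR adjusted p = 0.978), with an interval of 0.94 to 1.15. In that fit 3 of 426 miRNAs were called, or 0.704%. The interaction p of miR-885 was 0.791.

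Sire was not balanced between RFI groups. In Charolais, the only sire with steers in both groups had 1 low-RFI and 4 high-RFI steers, in KC the only one had 1 and 3, and in Angus 2 sires had 2 and 3 together. With sire as a block the comparison rests on these few steers, and several values changed. The log2 fold change of miR-122 in Charolais was then 0.68 (edgeR adjusted p = 0.0792), which passes the rule for a call. In that fit 48 of 373 miRNAs passed it, or 12.9%, against 7 without the block. For miR-122 the value was then 0.35 in KC and 0.068 in Angus, both of the opposite sign to those without the block. That of miR-885 in Angus was then -0.56, the opposite sign (edgeR unadjusted p = 0.0406, adjusted p = 0.710). It missed the rule for a call by its fold alone, which was just short of 1.5. In Charolais it was -0.26 (edgeR adjusted p = 0.817). RFI group and sire cannot be told apart for most of these steers.

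**Figure D4:**
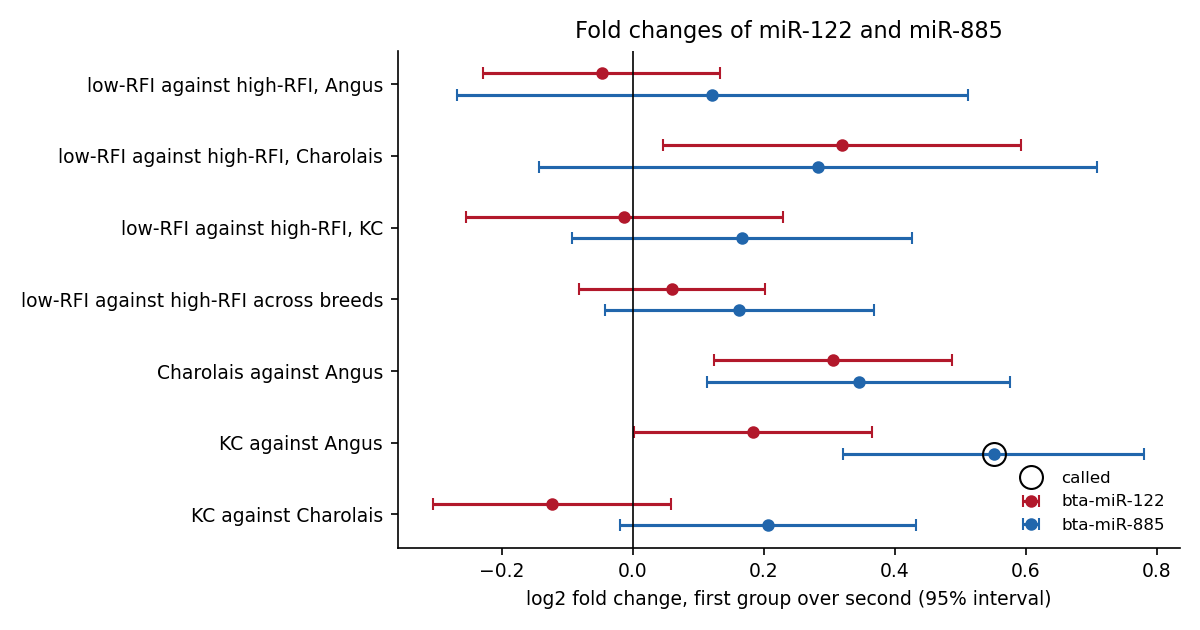
Log2 fold changes of miR-122 (red) and miR-885 (blue) from edgeR with 95% intervals derived from its F statistic, for 3 RFI comparisons within breeds, 1 across breeds and 3 comparisons between breeds. Values above 0 are higher in the group named first. The ring marks the comparison called, miR-885 in KC against Angus (0.55).

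On the hepatocyte-enriched list no miRNA was called between RFI groups in any breed. The 11 had a median log2 fold change of 0.06 in Angus against 0.01 over all miRNAs tested, of 0.04 in Charolais against 0.00, and of 0.00 in KC against 0.03. In Charolais 4 of 11 had an edgeR unadjusted p under 0.05, in both directions, against 19 of 373 over all tested, or 5.09%. miR-122 and bta-miR-455-5p were higher in low-RFI steers (log2 fold changes 0.32 and 0.45), and miR-192 and bta-miR-194 were lower (-0.20 and -0.24). Of the lists for other cells, all 7 leukocyte miRNAs were above 0 in low-RFI KC steers, against 227 of 385 over all tested. Of the 7, 1 was called (bta-miR-223), with 1.82% called over all tested. The 3 erythroid miRNAs were above 0 in each of the 3 breeds. In Charolais, with 1.88% of all called, the muscle miRNA miR-133a was called (0.62). Its low-RFI mean of 42.5 CPM stood above the high-RFI mean of 28.2 CPM. On the stellate and mesenchymal, endothelial, erythroid and biliary epithelial lists none was called.

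Half-sib families of a breed were also compared for each miRNA. In Angus the largest family had 6 steers, at 5203 to 7930 CPM of miR-122, and the next had 5, at 6417 to 7451 CPM (exact permutation p = 0.331). In Charolais 8 half-sibs lay between 6974 and 12064 CPM and 4 of another sire between 7007 and 18848 CPM (exact permutation p = 0.659). The value of 18848 CPM is that of the library with the low scaling factor. Without it the 3 others lay between 7007 and 8187 CPM, and their mean turned from above that of the 8, at 10502 against 8886 CPM, to below it, at 7720 CPM (exact permutation p = 0.291). In KC 8 half-sibs lay between 7178 and 10655 CPM and the 12 other steers between 5893 and 12236 CPM (exact permutation p = 0.290). For miR-885 the exact permutation p-values were 0.643, 0.903 and 0.453, and without the 2 libraries the first 2 were 0.638 and 0.176, where the sign of the difference in mean log2 CPM turned in both. The families overlapped in all 6 comparisons.

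No correlation between miR-122 and miR-885 passed a test. On log2 CPM centred within breed, Pearson's r was -0.05 (permutation p = 0.701) and Spearman's rho was 0.15 (permutation p = 0.244) over 60 steers, with Benjamini-Hochberg values of 0.809 and 0.669 over a family of 60 correlations. Without the 2 steers farthest from the median of miR-122, r was 0.25. In Angus r was 0.32 and rho 0.31, in Charolais r was -0.38 and rho -0.07, and in KC r was 0.29 and rho 0.25, with permutation p of at least 0.0976. Without the 2 libraries of low scaling factor, r was 0.20 over 58 steers and 0.09 in Charolais.

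**Figure D5:**
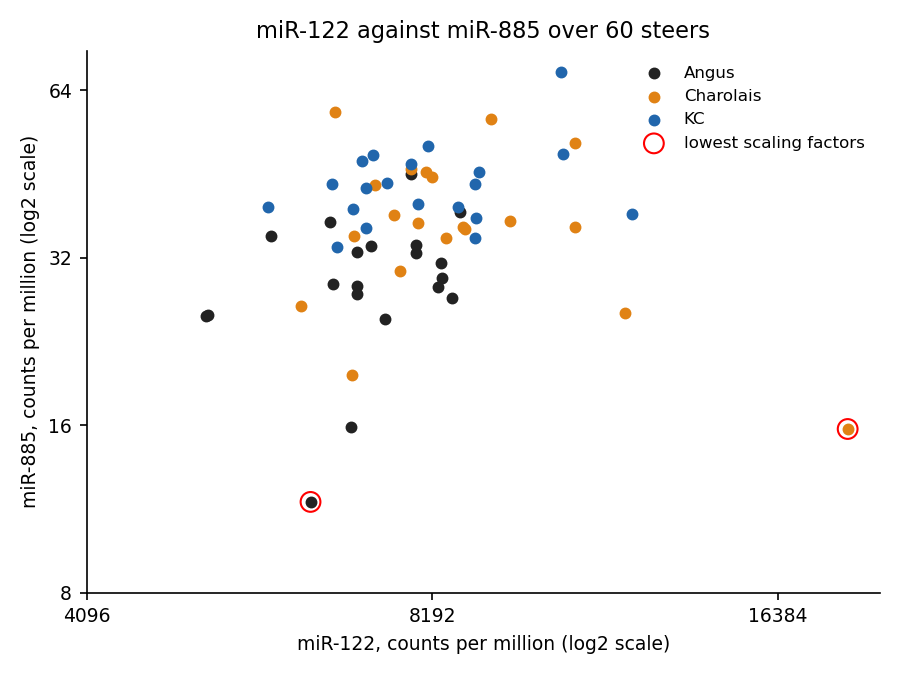
miR-885 against miR-122 in CPM, both on log2 scales, for 60 steers coloured by breed. Red rings mark the 2 libraries of lowest scaling factor. KC steers lie high on the miR-885 axis, while no common slope is seen (r = -0.05 after centring within breed).

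The same family held the relations of each miRNA with library depth and with the summed level of each list of other cells. With the log2 library total r was 0.16 for miR-122 and -0.07 for miR-885 over 60 steers, with permutation p of 0.214 and 0.616. The stellate and mesenchymal sum is nearly all miR-143, at a mean of 172133 CPM, with bta-miR-199a-3p next at 1290.5 CPM. miR-885 was lower where this sum was higher, with r = -0.43 over 60 steers (permutation p = 0.00194, Benjamini-Hochberg p = 0.0452), but rho was -0.19 (permutation p = 0.142). This relation rested on the 2 libraries of low scaling factor, which are also the steers farthest out, and without them r was -0.05. In Angus r was -0.68 (permutation test, Benjamini-Hochberg p = 0.0495), and -0.36 without the library of low scaling factor. Spearman's rho in Angus was -0.60 (permutation p = 0.00592, Benjamini-Hochberg p = 0.120), and -0.54 without that library (permutation p = 0.0194, Benjamini-Hochberg p = 0.292). In Charolais r was -0.40, and 0.23 without its own such library, and in KC it was -0.04. In Angus miR-885 was also lower where endothelial miRNAs were higher (r = -0.65, permutation test, Benjamini-Hochberg p = 0.0452). Without the Angus library of low scaling factor r was -0.45, and rho with all 20 Angus steers was -0.37 (permutation p = 0.108). The sign was the same over 60 steers (r = -0.34, permutation test, Benjamini-Hochberg p = 0.0623), in Charolais and in KC. In Charolais r was -0.22, and -0.38 without its library of low scaling factor, and in KC it was -0.12.

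For miR-122 the strongest relation was with the muscle list in KC, at r = 0.67 and rho = 0.65 over 20 steers (permutation p = 0.00151 and 0.00198, Benjamini-Hochberg p = 0.0452 and 0.119). Without the 2 steers farthest out r was 0.51. When the family of correlations was recomputed without the 2 libraries of low scaling factor, neither of which is KC, the Benjamini-Hochberg value of this r was 0.0906. In Angus r was 0.16 and in Charolais 0.32, and over 60 steers it was 0.37 (permutation p = 0.00671, Benjamini-Hochberg p = 0.0623), or 0.25 without the 2 libraries of low scaling factor. This list is nearly all miR-133a in these livers, with summed levels of 21.3 to 64.9 CPM. None of the other relations passed the adjusted threshold.

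The miRNAs whose pattern over steers was most like each of the pair were taken from 214 with a mean of at least 10 CPM, by Spearman's rho on levels centred within breed. For miR-122 they were bta-miR-30d (rho 0.53), miR-181a (0.52), bta-let-7b (0.51), bta-miR-28 (0.49) and bta-miR-574 (0.45). The least alike were bta-miR-21-3p (-0.48), bta-miR-450b (-0.40) and bta-miR-411c-5p (-0.39). None of these is on the hepatocyte-enriched list. For miR-885 the most alike were bta-miR-193b (0.43), which is on that list, bta-miR-15b (0.40), bta-miR-11995 (0.38), bta-miR-22-5p (0.38) and bta-miR-1307 (0.36). Without the 2 libraries of low scaling factor these values fell to 0.38, 0.34, 0.31, 0.31 and 0.29. The least alike were bta-miR-6119-5p (-0.52), bta-let-7e (-0.38) and bta-miR-2336 (-0.35). Over all 213 others the median rho was 0.01 for miR-122 and 0.00 for miR-885. By breed, miR-30d had rho of 0.62, 0.70 and 0.28 with miR-122 in Angus, Charolais and KC, and miR-193b had 0.58, 0.35 and 0.42 with miR-885. In the same order, rho with miR-885 was 0.18, 0.72 and 0.18 for miR-15b and 0.68, 0.16 and 0.11 for miR-1307. All of these levels come from the same libraries and share their scaling factors, and the values are given as a description without a test.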

How the data were processed

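Liver small RNA of 60 steers was sequenced (Illumina TruSeq Small RNA kit, single reads). Per the labels and the methods of the study, the authors trimmed reads with cutadapt 1.16, kept a range of lengths, removed other small RNAs, aligned with Bowtie 1.1.1 to UMD3.1 and counted known miRNAs with miRDeep2. The deposited values are raw read counts for each pair of mature miRNA and precursor, with no normalization. The counts have no molecular identifiers, so the floor of 3 counts and the counting CVs cover counting error only, whereas edgeR intervals include the spread between steers.

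Where a mature miRNA had more than 1 precursor, its counts were averaged and rounded. Of the pairs, 52 were listed for KC alone, and none involves miR-122 or miR-885. Levels are CPM with 1 TMM normalization over 60 steers (log2 with a prior count of 0.5). Between 1930859 and 6759381 counts per steer were available. Groups follow the labels for breed, RFI group and sire. Libraries of the same breed were all distinct. Nothing in the labels gives the sequencing pool, so that pools were not compared.

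Within a breed, low-RFI and high-RFI steers were compared with the edgeR 4.0.16 quasi-likelihood F test (limma 3.58.1, R 4.3.3) on miRNAs that reached 1 CPM in 6 or more of 12 steers. A call required an unadjusted p under 0.05 and a fold above 1.5, the rule of the study. Breeds were compared in a fit of 60 steers (1 CPM in 10 or more), called at a Benjamini-Hochberg adjusted p under 0.05. A fit of 36 steers tested the effect across breeds and the interaction. Single values were tested by exact permutation, and correlations by 100000 permutations within breeds (the smallest p these can give is about 1e-05). DESeq2 1.42.0 served as an alternative. The rest was done in Python 3.11.15 (scipy 1.17.1 and numpy 2.4.6, with pandas 2.3.3 for tables and matplotlib 3.10.9 for plots). The fits were tested on simulated data. Steers are separate animals.

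The miRNAs described, the marker lists and the tests were chosen with earlier results of these data known. Named are miR-122 and miR-885, the listed markers, the 20 most abundant miRNAs, the 3 ranked above and below each, the 5 most and 3 least alike by Spearman's rho, and any sharing a seed. miR-10b was named after its values were seen. Alternatives covered the test, scaling, filter, precursors, depth, sire, the steers included and leaving out each steer. Those without the 2 libraries of lowest scaling factor, each of 60 steers left out of the breed fits, and sire means without 1 label that may mean an unknown sire, were added after the data were seen. Levels of predicted miRNAs were not analysed here, and only their sequences were compared with those of miR-122 and miR-885. A sequence listed for the predicted bta-miR-AB-25 is the reverse complement of bases 1 to 20 of miR-122. Mature sequences were taken from the list of the study.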

Additional observations from a re-analysis of the deposited data

Results flagged for a closer look

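In 3 of 18 sets of steers (each of the 2 miRNAs in each of 9 groups) the highest or lowest steer stood apart from the rest by Dixon's criterion at the 95% level, and chance flags about 1 in 20. miR-122 was at 18848 CPM in Charolais no RFI group replicate 7, where the next of 8 steers was at 10915 CPM. This library has the lowest scaling factor, and by library total alone its level was 12118 CPM. miR-122 was at 10655 CPM in KC low-RFI replicate 4, where the next of 6 steers was at 8129 CPM. miR-885 was at 69.0 CPM in KC no RFI group replicate 8, from 396 counts, where the next of 8 steers was at 45.7 CPM.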

How the results depend on the processing

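Of 704 recomputed fold changes and adjusted p-values of miR-122 and miR-885, 664 kept their sign and their side of the threshold, 21 passed it, 8 fell short of it and 11 changed sign, and the cause was not tested. Most of the 704 came from fits with a single steer left out. A value that was not called before or after counted as kept if its sign held, whatever its size. The tally is therefore no measure of how stable the values were. Low-RFI against high-RFI, blocking on sire gave log2 fold changes of miR-122 of 0.35 in KC, 0.68 in Charolais and 0.068 in Angus, and of miR-885 of -0.26 in Charolais and -0.56 in Angus. For miR-122 in KC the value was 0.011 by library total alone. With each steer left out it ran from -0.13 to 0.018 for miR-122 in KC, and from -0.020 to 0.22 for miR-885 in Angus, where the sign changed only without low-RFI replicate 2.

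Over the breeds, the adjusted p of miR-122 was 0.0757 by library total alone, 0.411 in the 36 steers with an RFI group and 0.0721 without the 2 libraries of low scaling factor, and it ran from 0.0173 to 0.0613 with each steer left out. In Charolais against Angus, miR-122 was called by the likelihood ratio test (log2 fold change 0.31) and by DESeq2 (0.31), and ran from 0.22 to 0.32 with each steer left out. For miR-885 it ran from 0.29 to 0.39 and was called without Charolais high-RFI replicate 2 (or without Charolais no RFI group replicate 7). In KC against Angus, miR-885 was called under all alternatives run, at 0.43 to 0.58.

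The number of miRNAs called between RFI groups was 20, 17 and 15 in Angus, Charolais and KC with no filter, 1, 1 and 4 with at least 10 counts in every steer, and 48 and 14 in Charolais and KC with sire as a block. It ran from 5 to 11 in Angus and from 3 to 13 in KC with each steer left out. The likelihood ratio test called 1 for the interaction. Between breeds 48 were called overall in the 36 steers. Charolais against Angus gave 4 by library total alone, 2 after thinning, 3 in the 36 steers and 5 to 14 with each steer left out. KC against Angus gave 27 without pairs listed for 1 breed only and 24 in the 36 steers, and KC against Charolais gave 46 without those pairs. By library total alone, 2 of 4 calls were higher in Charolais than in Angus (8 of 10 with TMM), 33 of 46 in KC than in Angus (27 of 55), 44 of 66 in KC than in Charolais (33 of 71) and 5 of 9 in low-RFI than in high-RFI Charolais (3 of 7).

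Without the 2 libraries the CV was 18.4% for miR-122 and 25.8% for miR-885, and the relations of miR-885 with stellate and mesenchymal miRNAs (r = -0.05 over all steers, -0.36 in Angus) and with endothelial miRNAs in Angus (r = -0.45) no longer passed, nor did that of miR-122 with muscle miRNAs in KC (Benjamini-Hochberg p = 0.0906 with r as before). With precursors summed, miR-122 held 0.711% of counts and miR-885 ranked 152nd. No paired analysis was possible because the replicate numbers only name steers within a group, with no label pairing them. The number of steers, 6 against 6, limits the RFI comparisons, and for miR-885 so does a count as low as 29.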
